A study of Mus musculus with 6 samples.

Results

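The genes that encode the subunits of respiratory complexes III and IV and of the ATP synthase were followed in epithelial cells of the mouse small intestine. They were chosen by name: protein-coding genes of the GENCODE M21 annotation whose symbol begins with Uqcr, Atp5, or Cox followed by a subunit number from 4 to 8 and a letter, plus Cyc1. This gave 45 of the 55298 genes counted, with 9 in complex III, 18 in complex IV and 18 in the ATP synthase. All mice had collagen-induced arthritis, in which injected collagen provokes an immune attack on the joints. The 3 libraries of the control group carried the genotype label HIF2α +/- F/F, given as littermate controls. The other 3 carried the label HIF2α +/- ΔIEC, given as an intestinal knockout. What +/- stands for in both labels, the driver of any Cre, and the age of the mice are not given in the sources used here. Whether libraries of 1 group are from different mice is not stated, so p-values measure the spread between these libraries, which may be technical.

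Complex III passes electrons from ubiquinol to cytochrome c, complex IV passes them on to oxygen, and both pump protons across the inner mitochondrial membrane. The ATP synthase lets the protons flow back through a rotating ring and makes ATP from the motion. The nucleus encodes most subunits, and the mitochondrial genome encodes a few central ones, which were not analysed here. Epas1 encodes HIF2α, which accumulates when oxygen is low and pairs with another protein to switch on genes. In cultured mammalian cells, hypoxia-inducible factors are known to exchange isoforms of complex IV, with Lonp1, a mitochondrial protease, taking part.

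Counted reads per library ran from 28937122 to 38454620. Levels are given as CPM, that is, reads scaled to a common library total and for composition. Epas1 was at 12.2, 19.4 and 17.5 CPM in the controls and at 44.2, 25.9 and 31.9 CPM in the libraries labelled knockout. Its level thus goes against the label, although reads from exons outside a deleted part would count as well. Directions below compare the knockout label with the control label. Fold changes of all genes followed the GC content of their transcripts, with a Spearman correlation of -0.74 over 15135 genes, given as a description because genes are no replicates. A slope on each 10% of GC was taken of log2 level minus each gene's mean over the 6 libraries. It was 0.96, 0.93 and 0.44 in the 3 controls and -0.79, -0.89 and -0.64 in the 3 others. These slopes are relative to the mean of the libraries, so their sign is not that of a library taken alone. Values are therefore given without and with a correction for GC content and transcript length within each library, and the GC slope cannot be told apart from the group. The 8 epithelial markers summed to between 20530.2 and 23010.3 CPM in the controls and to between 12041 and 15040.1 CPM in those labelled knockout, with none at 0. Krt8 and Krt19, keratins of simple epithelia, carried the fall of this sum, with means of 7910 and 5601 CPM in the controls and 3218 and 2132 CPM in the others. Of the 8 markers, 3 were called lower (Krt8, Krt19 and Alpi) and 2 higher (Cdh1 and Krt20) without correction, and 0 lower and 2 higher (Epcam and Cdh1) with it. The part of this difference in the results was not tested. In these bulk libraries, fewer cells of a type and less RNA per cell cannot be told apart.

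Most subunit genes of all 3 complexes were lower in the libraries labelled knockout. Of the 40 genes with enough reads to test, 31 were called lower at an adjusted p below 0.05 (edgeR quasi-likelihood test) and 3 were called higher, where 29.7% of all 15143 tested genes were called lower and 37.2% higher (66.9% in all). Those called lower were 7 of 9 tested genes of complex III, 12 of 14 of complex IV and 12 of 17 of the ATP synthase. The median log2 fold change was -1.38 in complex III, -1.32 in complex IV and -1.26 in the ATP synthase, against 0.15 over all tested genes. The values of the 2 groups did not overlap for 31 genes that were lower and 4 that were higher, where 33.6% and 39.0% of all tested genes had such separate groups (72.6% in all). Leaving out each library in turn kept the call of 28 of the 31. Uqcrh and Cox7a2l lost theirs without knockout library 1 or 2, and Atp5c1 also without control library 2. Scaling by total counts moved the median of all tested genes up by 0.47 on the log2 scale, and the medians of the 3 complexes then were -0.88, -0.82 and -0.77, with 6, 11 and 11 genes called lower, where 17.6% of all tested genes were lower and 43.3% higher.

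**Figure D1:**
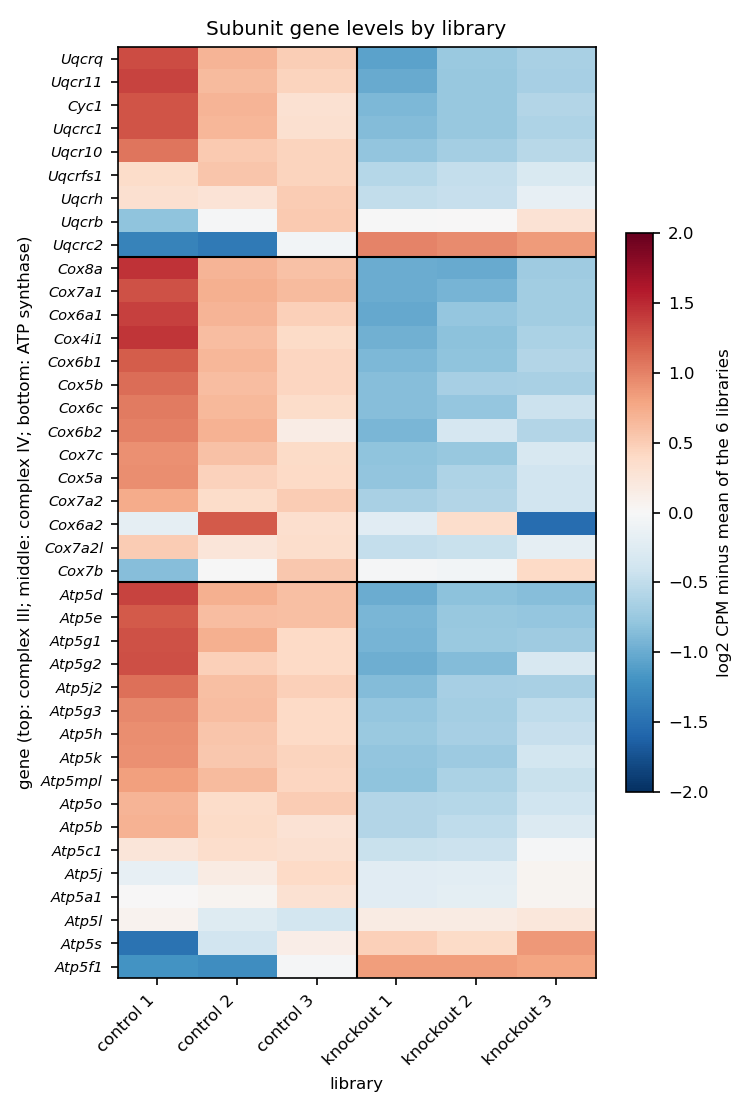
Level of each tested subunit gene (vertical axis, grouped by complex) in each of the 6 libraries (horizontal axis), as log2 CPM with a small constant added, minus the mean of the 6 libraries, red above and blue below. Control library 1 had the highest control value in 28 of the 31 genes called lower, and the genes called higher stand out with the opposite colours.

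Summed over their genes, the 3 complexes held 36379, 27569 and 26155 CPM in the controls and 13278, 14088 and 16144 CPM in those labelled knockout. The groups did not overlap, and the mean of the control libraries was 2.07 times that of the others. The ratio of means was largest for complex IV, with 11277, 7556 and 6894 CPM against 2867, 3096 and 3622 CPM, at 2.68. The corresponding ratio was 2.14 for complex III, which held 5872 ± 1285 CPM (SD, n = 3) in the controls and 2740.3 ± 223 CPM (SD, n = 3) in the others. For the ATP synthase it was 1.82, with 17775, 14617 and 14366 CPM against 7879.8, 8278 and 9546 CPM. As an unscaled share of all counted reads, the 45 genes took 2.732%, 2.399% and 2.413% in the controls and 1.682%, 1.648% and 1.8002% in the libraries labelled knockout. The libraries of a group were not alike. Among the 31 genes called lower, control library 1 was the highest control in 28 and control library 3 the lowest in 25, while knockout library 1 was the lowest of its group in 30. The GC slope was also highest in control library 1 and lowest in control library 3 among the controls. In the other group the match was partial. Knockout library 3 had the highest slope and was the highest of its group in 28 of these genes. The lowest slope there was in knockout library 2 (-0.89) and not in knockout library 1 (-0.79). The part of the slope in these orders was not tested.

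With the correction for GC content and length, 24 genes were called lower, 5 in complex III, 8 in complex IV and 11 in the ATP synthase, and 1 was called higher, where 15.6% of all 15135 genes in this fit were lower and 14.3% higher (29.9% in all). The corrected medians were -0.63, -0.88 and -0.75 for the 3 complexes and -0.02 for all genes. The correction did not act evenly, since it enlarged 13 and shrank 18 of the 31 decreases. It left 22 genes called lower in both fits, 9 only without the correction and 2 only with it, Uqcrb and Atp5a1. Without knockout library 1 the corrected counts of lower genes were 3, 5 and 8 in the 3 complexes, and they were the same numbers without knockout library 2. Of all genes, 7.26% were lower and 7.54% higher without the first of these libraries, and 9.27% and 9.05% without the second. Of the 24 genes, 16 kept the corrected call without each library. The calls of Uqcr10, Uqcrb, Cox7a1, Cox4i1, Cox6b1, Atp5d, Atp5e and Atp5a1 were lost without either of these libraries, and those of Uqcr10, Uqcrb, Cox4i1, Atp5d and Atp5a1 also without others. The corrected increase, of Uqcrc2, was called only in the full set and without control library 3.

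**Figure D2:**
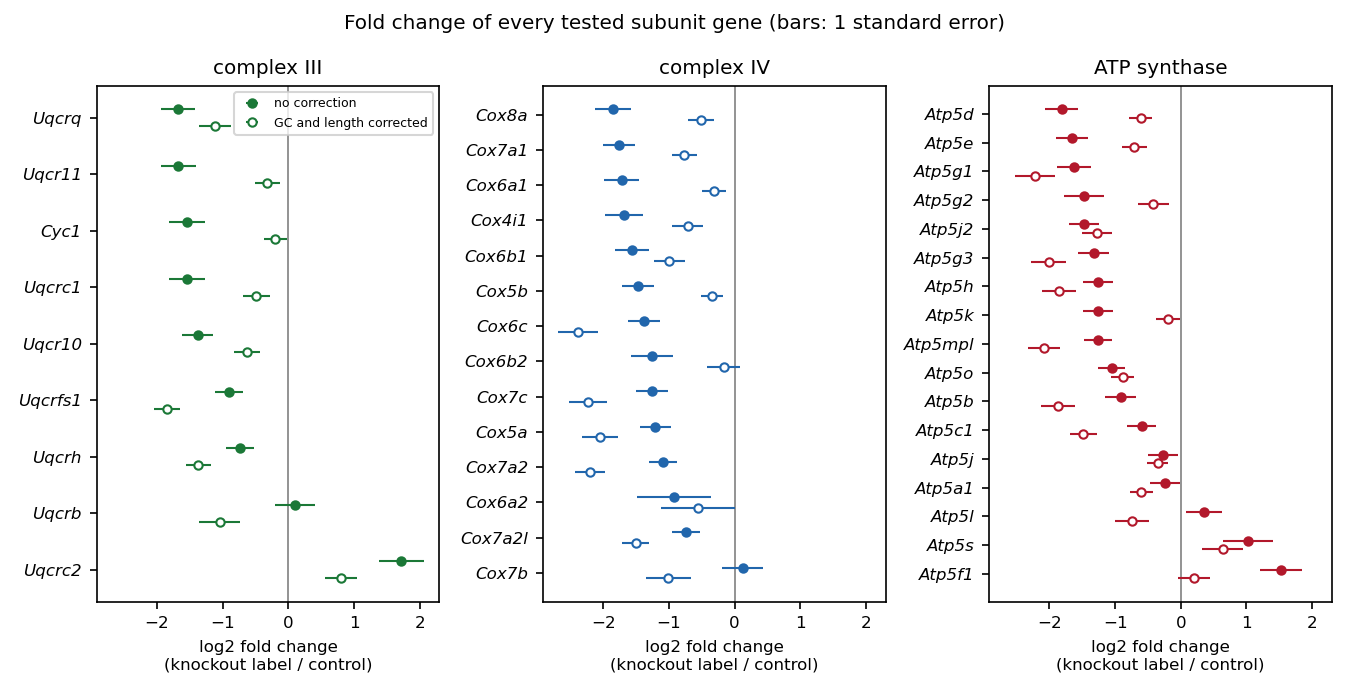
Log2 fold change (horizontal axis, libraries labelled knockout against control) of each tested subunit gene (vertical axis), with 1 standard error, without correction (filled) and with correction for GC content and length (open). Of the 40 genes, 31 were called lower without the correction and 24 with it, and single genes moved either way.

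The decreases differed with the GC content of the gene. Across the 40 tested genes, which share the same 6 libraries, the Spearman correlation of uncorrected fold change with median transcript GC was -0.77, and with the correction it was 0.53. Below 45% GC, the 4 subunit genes changed by a median of 0.11 on the log2 scale, where all genes of that band had 1.64. From 45 to 50% GC, 13 subunit genes had a median of -0.91 and all genes 1.27. The 12 subunit genes from 50 to 55% had -1.43 against -0.25, and the 11 above 55% had -1.55 against -1.11. The medians of the subunit genes were thus below those of all genes of their own GC band in each of the 4 bands, by the most in the 2 bands below 50% and by the least in the highest one. No subunit gene above 55% GC was higher, since the largest value there was -1.26.

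**Figure D3:**
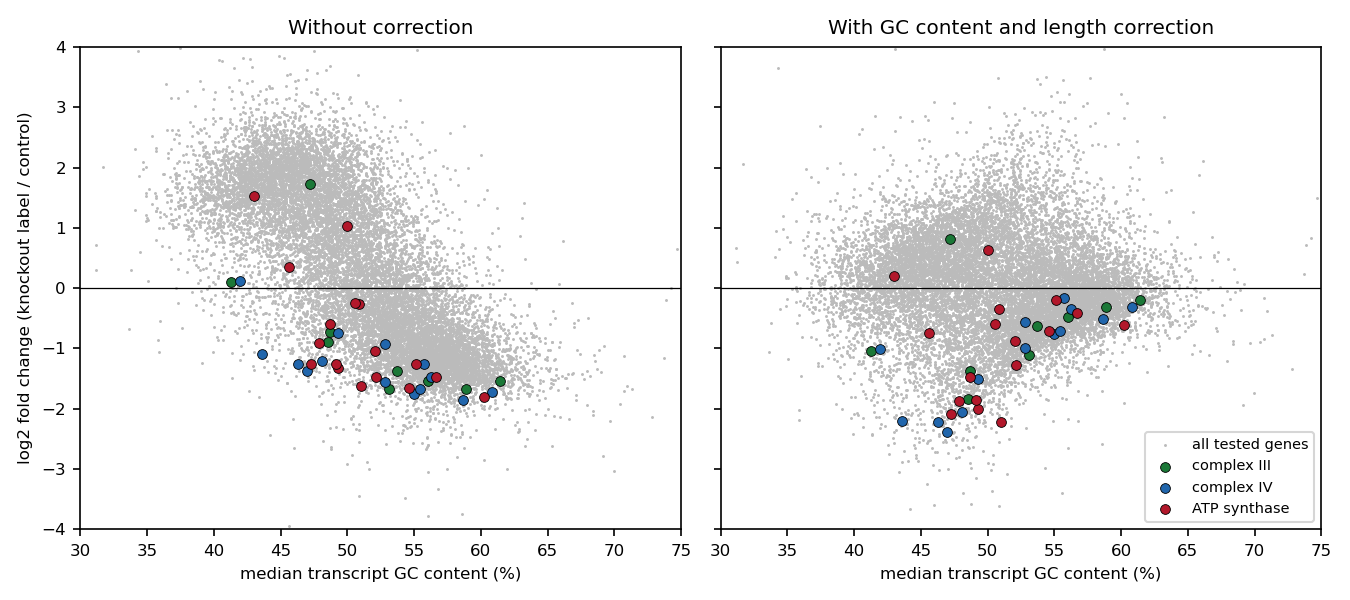
Log2 fold change (vertical axis) against median transcript GC content in percent (horizontal axis) for all tested genes (grey) and the subunit genes (colours), without correction on the left and with it on the right. Without correction the 40 subunit genes follow the slope of all genes, and their median lies below that of all genes in every GC band, while single genes such as Uqcrc2 at 1.72 lie above it.

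The correction rests on the GC content and length given to each gene, and these depend on which annotated transcripts are used. The fit above took the median of all transcripts of a gene, and the median length was then 588 bases over the tested subunit genes and 1354.5 bases over all tested genes. With the principal transcript of each gene these lengths were 697 and 2614 bases. With the principal transcript of each gene, a choice made after seeing the data, 18 subunit genes were lower, 3 in complex III, 7 in complex IV and 8 in the ATP synthase, where 13.3% of all genes were lower. Atp5j and Atp5f1 were higher in that fit, where 11.7% of all genes were higher. With the median of protein-coding transcripts, 4, 8 and 7 genes were lower and 0 higher by edgeR (24 in either direction at an unadjusted p below 0.05), where 15.5% and 13.4% of all genes were. The genes called lower in all 4 fits numbered 15, where 5.9% of 13254 genes were. They were Uqcrq, Uqcrfs1 and Uqcrh of complex III, Cox6b1, Cox6c, Cox7c, Cox5a, Cox7a2 and Cox7a2l, and Atp5g1, Atp5j2, Atp5g3, Atp5h, Atp5b and Atp5c1. Of these, 11 were also called without each library in turn, in the uncorrected fit and in the fit with the median of all transcripts. No subunit gene was higher in all 4 fits, where 7.94% of all genes were. The GC slopes of the 2 groups did not overlap. With each library's slope as a covariate, edgeR called 0 of the 40 subunit genes (0 at an unadjusted p below 0.05) and 0 of all genes (355 at an unadjusted p below 0.05).

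**Figure D4:**
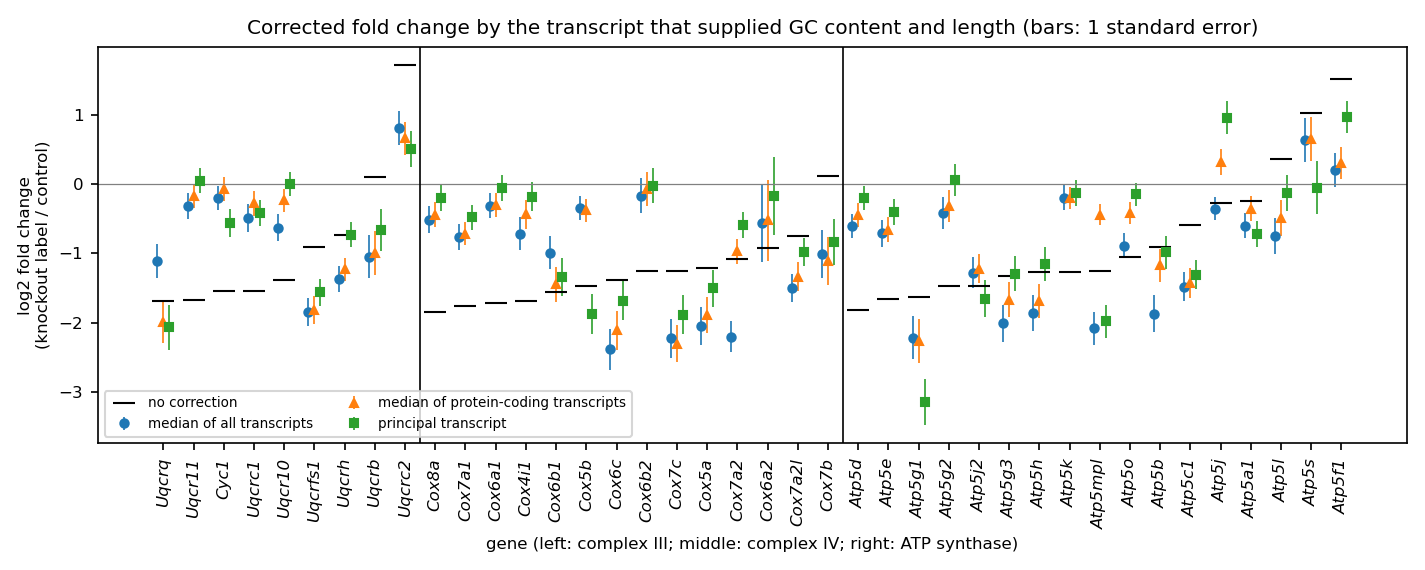
Log2 fold change (vertical axis) of each tested subunit gene (horizontal axis) with no correction (dashes) and with the correction fed by 3 kinds of transcript values (symbols, with 1 standard error). Cox6c, Cox7c and Uqcrfs1 stay below 0 by all 4 values, while Atp5j and Atp5f1 differ in their call between them.

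The promoters of subunit genes are known to carry sites for NRF1 and for the ETS factor GABP, and these were searched for because the genes moved together. Nrf1 itself was called in neither fit by edgeR (-0.25, adjusted p = 0.31, and -0.40, adjusted p = 0.088, with correction). The GABP genes Gabpa, Gabpb1 and Gabpb2 were called higher without correction, at 1.65, 1.59 and 1.41. With correction they were not called, at 0.28, 0.23 and -0.16. The part of these factors in the lower subunit genes was not tested. Windows of 250 bases before to 50 after the start, from RefSeq on GRCm38.p6, were found for 33 of the 45 genes, 31 by symbol and 2 by synonym. A palindromic form of the NRF1 site, the 10 letters in capitals in the first 3 stretches printed here, stood in 4 windows (12.1%), of Uqcrc1, Cox6a1, Atp5g2 and Atp5k, and in 1.07% of the windows of 27025 genes. The letters CCGGAAGT, a form of the ETS site, stood on either strand in 4 other windows (12.1%), of Uqcr11, Uqcrh, Cox8a and Atp5h, and in 4.31% of all. No match of one motif overlapped a match of another in these genes. All 8 genes were called lower without correction, and 2 of them, Uqcrh and Atp5h, also with it. Of all 40 tested subunit genes, with or without such a site, 31 were lower without correction and 24 with it. The following stretches show 5 of these matches in capitals with the bases around them, on the minus strand of GRCm38.p6, at chr5:115349096-115349135 for Cox6a1, chr15:102671065-102671104 for Atp5g2, chr5:108434425-108434464 for Atp5k, chr10:80406865-80406902 for Uqcr11 and chr11:115419936-115419973 for Atp5h, where the ETS letters read as their reverse complement.
Cox6a1: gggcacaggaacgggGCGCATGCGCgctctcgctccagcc
Atp5g2: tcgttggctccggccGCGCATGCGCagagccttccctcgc
Atp5k: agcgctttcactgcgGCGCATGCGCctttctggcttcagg
Uqcr11: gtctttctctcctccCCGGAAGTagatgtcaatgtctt
Atp5h: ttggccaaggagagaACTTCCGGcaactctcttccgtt

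The short core of the hypoxia response element, ACGTG or GCGTG on either strand, stood in 25 of the 33 windows (75.8%) and in 46.7% of all windows. The windows of the subunit genes had a median GC content of 55.7% and those of all genes one of 52.8%. The letters contain CG, as do those of the NRF1 and ETS sites above. The 27025 genes were not limited to those tested here. Of the 25 genes, 19 were called lower, 2 higher (Atp5s and Atp5f1) and 2 neither way, and the other 2 had too few reads to test. Of all 40 tested subunit genes, with or without the core, 31 were called lower and 3 higher. A match of letters is a description and does not show that a factor binds there.

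In complex III, both genes of the catalytic core were lower. Cyc1, which encodes cytochrome c1, was at 1811, 1219 and 932 CPM in the controls and at 406, 449 and 502 CPM in those labelled knockout. Uqcrfs1, the Rieske iron-sulfur protein, was at 564, 646 and 596 CPM against 296, 315 and 355 CPM. The groups were apart for both, but only Uqcrfs1 varied little within the control group. Cyc1 had a log2 fold change of -1.55 without correction and -0.20 with it (adjusted p = 0.43, edgeR), whereas Uqcrfs1 had -0.90 without (SE 0.21, adjusted p = 0.0026) and -1.85 with it (SE 0.20, adjusted p = 0.0012).

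The core proteins Uqcrc1 and Uqcrc2, which form the part of complex III that faces the matrix, moved in opposite directions without correction. Uqcrc1 was at 2248, 1496 and 1173 CPM in the controls and at 515, 558 and 612 CPM in those labelled knockout, a log2 fold change of -1.55 (SE 0.27, adjusted p = 0.00058). Uqcrc2 (GRCm38 chromosome 7, 120635176 to 120659524, plus strand) was at 86.5, 82.1 and 209.5 CPM against 431, 421 and 394 CPM, a change of 1.72 (SE 0.35, adjusted p = 0.0015). The groups did not overlap for either gene, and control library 3 stood closest to the other group for both. The ratio of Uqcrc1 to Uqcrc2 reads was 26.0, 18.2 and 5.60 in the controls and 1.19, 1.33 and 1.55 in the others. With correction the ratio was 10.3, 7.91 and 4.001 against 2.54, 2.72 and 2.91, so the groups lay closer together but did not overlap. The corrected change of Uqcrc2 was 0.81 (SE 0.25, adjusted p = 0.035), and with principal transcripts it was 0.51 (adjusted p = 0.17). For Uqcrc1 it was -0.49 (SE 0.20, adjusted p = 0.096) and -0.41 (adjusted p = 0.14), so the opposite calls made without correction were not made in either of these fits.

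Of the 5 small accessory subunits of complex III, which surround the core, 4 were called lower without correction and 4 with it. These were not the same 4 genes. Of all genes, 29.7% were lower without correction and 15.6% with it. Uqcrq was at 825, 533 and 467 CPM in the controls and at 158, 199 and 212 CPM in those labelled knockout. Its log2 fold change of -1.68 (SE 0.26, adjusted p = 0.00036) became -1.11 with correction (adjusted p = 0.010). Uqcr11, at 661, 400 and 353 CPM against 128, 153 and 163 CPM, changed by -1.67 (SE 0.27, adjusted p = 0.00041) without correction. Both were low in all 3 libraries labelled knockout, but the corrected value of Uqcr11 was -0.32 (adjusted p = 0.22). Uqcr10 was lower by both values, -1.38 and -0.63, as was the hinge protein gene Uqcrh with -0.73 and -1.37. With principal transcripts Uqcr10 was at 0.0086 (edgeR adjusted p = 0.98) and Uqcr11 at 0.050 (adjusted p = 0.86), while Uqcrq and Uqcrh were called lower. Uqcrb was at 87.8, 150.4 and 221 CPM against 152, 154 and 187 CPM, so the control libraries spread across the whole range of the others. It was not called without correction (0.10, adjusted p = 0.77) and was lower with it (-1.05, adjusted p = 0.035).

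Complex IV had no gene called higher in any of the 4 fits. Its nuclear subunits, which surround the catalytic core, were lower in 12 of 14 tested cases without correction, where 29.7% of all genes were. With correction 8 of the 14 were lower, where 15.6% of all genes were. Principal transcripts gave 7 lower and protein-coding transcripts 8, where 13.3% and 15.5% of all genes were. Cox4i1, the common isoform of the subunit that binds ATP, had the most reads in the complex, with 2954, 1684 and 1432 CPM in the controls and 563, 621 and 709 CPM in those labelled knockout. The groups did not overlap, and control library 1 stood far above the other 2 controls. Its log2 fold change was -1.68 (SE 0.29, adjusted p = 0.00057) without correction, -0.72 (adjusted p = 0.048) with it and -0.18 (adjusted p = 0.56) with principal transcripts. Cox4i2, the isoform of this subunit known to rise in hypoxic lung and cultured cells, had between 0 and 2 reads per library and was not tested.

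Cox5a and Cox5b encode neighbouring subunits and are not isoforms of one another. Cox5a was at 963, 701 and 671 CPM in the controls and at 292, 332 and 388 CPM in those labelled knockout, and Cox5b at 961, 677 and 593 CPM against 245, 277 and 281 CPM. For both genes all 3 libraries labelled knockout lay below all 3 controls. Without correction the log2 fold changes were -1.21 for Cox5a and -1.47 for Cox5b, and with it they were -2.05 (SE 0.27, adjusted p = 0.0016) and -0.34 (SE 0.17, adjusted p = 0.16). The median GC content of their transcripts was 48.1% and 56.3%. With the principal transcript, which has 49.0% GC in both genes, Cox5b changed by -1.88 (adjusted p = 0.0031) and Cox5a by -1.50 (adjusted p = 0.0052).

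Of the other common subunits, Cox8a, a small membrane subunit, was at 1117, 653 and 611 CPM in the controls and at 206, 204 and 251 CPM in those labelled knockout. Its log2 fold change of -1.85 (SE 0.27, adjusted p = 0.00029) was the largest decrease in complex IV and became -0.52 (adjusted p = 0.075) with correction. Cox6a1 was likewise lower without correction, at -1.72, and not called with it, at -0.31. Cox6b1, the subunit on the outer face that helps hold 2 monomers together, was at 1455, 989.6 and 842 CPM against 337, 359 and 416.5 CPM. It changed by -1.56 (SE 0.26, adjusted p = 0.00045) without and -0.99 (SE 0.24, adjusted p = 0.015) with correction. All 3 libraries labelled knockout were below all controls for these genes, and control library 1 was the highest. Cox6c, Cox7c and Cox7a2 had smaller uncorrected decreases, of -1.38, -1.26 and -1.09, and the corrected values were -2.38, -2.23 and -2.20. Cox7a2l, known for its part in joining complexes III and IV into supercomplexes, changed by -0.74 and, corrected, by -1.50. Cox7b was at 141, 254 and 372 CPM against 252, 245 and 337 CPM, so the groups overlapped, and it was called in neither fit.

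The tested isoforms with a known muscle or testis form were Cox7a1, Cox6a2 and Cox6b2. Cox7a1, the heart and skeletal muscle isoform of its subunit, was at 242, 163 and 155 CPM in the controls and at 50.6, 52.8 and 61.8 CPM in those labelled knockout. Its log2 fold change of -1.76 (SE 0.24, adjusted p = 0.00022) had the smallest p in complex IV, and the corrected one was -0.77 (SE 0.19, adjusted p = 0.016). With principal transcripts the value was -0.48 (adjusted p = 0.087). The 7 muscle markers summed to 14.7, 41.0 and 11.6 CPM in the controls and to 6.60, 5.02 and 4.15 CPM in the others, and 2 of the 4 tested ones were lower without correction and 0 with it. Acta1, actin of skeletal muscle, made up most of the sum, and Myh11, the myosin of smooth muscle, was at or below 0.087 CPM. The part of muscle RNA in the difference of Cox7a1 was not tested. Reads of Cox7a2, the widely expressed isoform, were 2.21, 2.54 and 2.95 times those of Cox7a1 in the controls and 4.03, 4.02 and 3.97 times in the others. With correction that order turned, to 5.06, 6.44 and 4.59 against 1.89, 1.70 and 2.22, so no direction is read from it.

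Cox6b2, the testis isoform, was at 14.3, 11.5 and 7.83 CPM in the controls and at 3.74, 5.59 and 4.71 CPM in the others. Its groups did not overlap, and it was lower without correction (-1.26, adjusted p = 0.0046) but not called with it (-0.17, adjusted p = 0.64). Cox6a2, the heart and skeletal muscle isoform, was at 0.45, 1.29 and 0.67 CPM against 0.44, 0.68 and 0.15 CPM, with overlapping groups and no call. It overlaps Itgad on the other strand, and whether counting used strand is not stated. Cox7b2 and Cox8c had 0 reads in every library and Cox8b 1 read in 1 library, where 3 reads would be between 0.073 and 0.10 CPM.

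In the ATP synthase, 12 of 17 tested genes were lower without correction and 11 with it, where 29.7% and 15.6% of all genes were. Atp5b, the catalytic β subunit, had the most reads of all 45 genes, with 6253, 5061 and 4734 CPM in the controls and 2576, 2736 and 3203 CPM in those labelled knockout. Its groups did not overlap. It changed by -0.91 (SE 0.24, adjusted p = 0.0050) without correction and -1.87 (SE 0.26, adjusted p = 0.0019) with it. Atp5a1, the α subunit that alternates with β in the head, was at 2322, 2399 and 2845 CPM against 1982, 2025 and 2393 CPM. These groups overlapped, and the change was -0.24 (adjusted p = 0.35) without and -0.60 (adjusted p = 0.033) with correction. The ratio of Atp5b to Atp5a1 reads was 2.69, 2.11 and 1.66 in the controls and 1.30, 1.35 and 1.34 in the others.

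The central stalk, which turns inside the head, was called lower in all 3 genes by both values. Atp5d was at 1835, 1171 and 1094 CPM in the controls and at 360.0, 406 and 400.2 CPM in those labelled knockout, and Atp5e at 581, 382 and 376 CPM against 132, 147 and 145 CPM. The libraries labelled knockout were nearly alike for these genes, and control library 1 was well above the other controls. Atp5d changed by -1.81 (SE 0.26, adjusted p = 0.00024) and Atp5e by -1.66 (SE 0.24, adjusted p = 0.00026), the smallest p values in the ATP synthase, and with correction the changes were -0.61 (adjusted p = 0.027) and -0.71 (adjusted p = 0.022). Neither was called with principal transcripts. The γ subunit gene Atp5c1 changed by -0.59 without (SE 0.22, adjusted p = 0.031) and -1.48 with correction.

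The 3 genes Atp5g1, Atp5g2 and Atp5g3 encode the same mature subunit c, which forms the proton-driven ring, with different import sequences. Atp5g3 supplied most reads, with 2153, 1699.7 and 1466 CPM in the controls and 648, 693 and 782 CPM in those labelled knockout. Atp5g1 was at 647, 436 and 350.2 CPM against 140.3, 159.6 and 163 CPM. Atp5g2 was at 121, 69.1 and 65.2 CPM against 25.2, 27.2 and 39.6 CPM. The groups were apart for all 3 genes, with log2 fold changes of -1.32 for Atp5g3, -1.63 for Atp5g1 and -1.47 for Atp5g2 (adjusted p = 0.00064, 0.00038 and 0.0012). With correction the values were -2.01 and -2.22 for Atp5g3 and Atp5g1, both called, and -0.42 for Atp5g2, which was not (adjusted p = 0.21). Atp5g1 took 22.2%, 19.8% and 18.6% of the reads of the 3 genes in the controls and 17.2%, 18.1% and 16.6% in the others, and these shares did not overlap.

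The peripheral stalk, which holds the head still, was mixed. Atp5h was at 892, 684 and 616 CPM in the controls and at 278, 295.5 and 338 CPM in those labelled knockout, and was lower in both fits, at -1.27 and -1.86. Atp5o, which joins the stalk to the head, was lower in both fits, at -1.05 and -0.89. By edgeR, Atp5o was not called with principal transcripts (-0.14, adjusted p = 0.55) or protein-coding transcripts (-0.42, adjusted p = 0.081). Atp5f1, subunit b of the same stalk (GRCm38 chromosome 3, 105942698 to 105960099, minus strand), was at 92.1, 88.9 and 207 CPM against 376, 378 and 363.5 CPM. The groups of Atp5f1 did not overlap, and control library 3 was nearest to the others. It changed by 1.52 (SE 0.32, adjusted p = 0.0016) without correction, 0.20 (SE 0.24, adjusted p = 0.56) with it and 0.97 (adjusted p = 0.017) with principal transcripts. The gene overlaps Wdr77 on the other strand, which was at 11.6 to 19.7 CPM in the controls and at 26.9 to 34.2 CPM in the others. The ratio of Atp5h to Atp5f1 reads was 9.68, 7.70 and 2.97 in the controls and 0.74, 0.78 and 0.93 in the others, and with correction it was 8.31, 5.04 and 2.22 against 0.96, 1.19 and 1.12. Atp5j, which overlaps Gabpa on the other strand, was called in neither of the 2 fits, at -0.27 and -0.35, and was higher by 0.96 (adjusted p = 0.020) with principal transcripts.

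**Figure D5:**
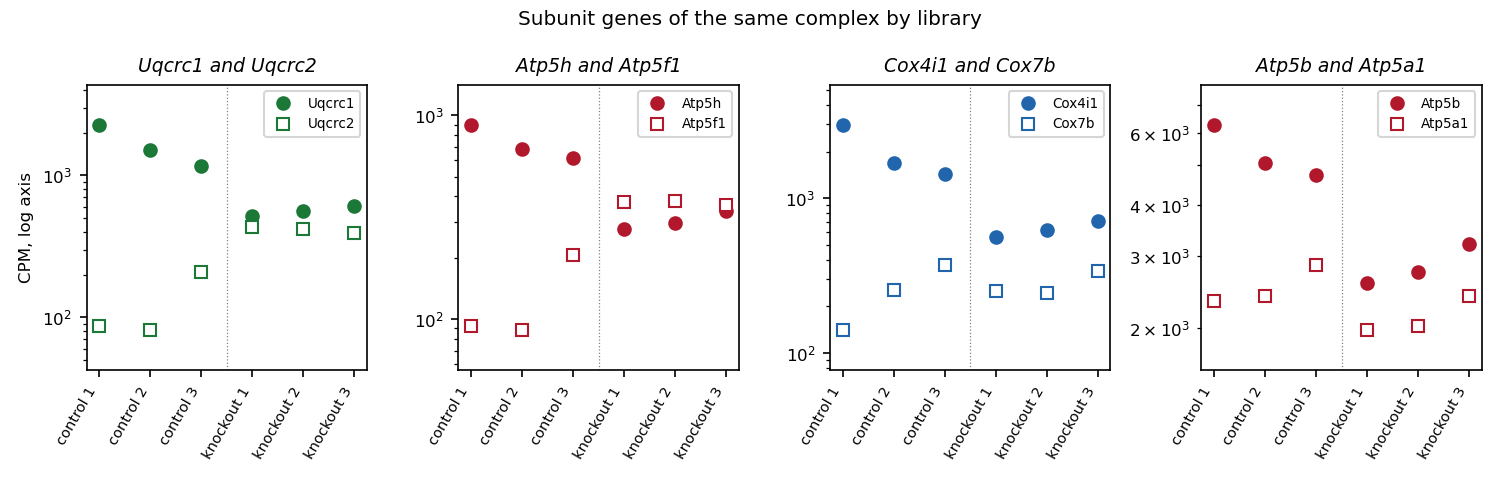
CPM on a log axis (vertical) of 4 pairs of genes of the same complex in each library (horizontal), the first gene filled and the second open. Uqcrc1 and Atp5h fall and Uqcrc2 and Atp5f1 rise from the control libraries to those labelled knockout, while Cox7b overlaps between the groups and so does Atp5a1.

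Of the small membrane subunits of the ATP synthase, Atp5j2, Atp5k and Atp5mpl were lower without correction, at -1.47, -1.27 and -1.26. With correction Atp5j2 and Atp5mpl were lower, at -1.28 and -2.08, and Atp5k was not called. Atp5mpl was also lower with principal transcripts (-1.98) but was not called with protein-coding ones (-0.44, adjusted p = 0.060, edgeR). Atp5l was at 9.11, 7.25 and 6.72 CPM against 9.68, 9.72 and 10.1 CPM, with separate groups but no call (0.36, adjusted p = 0.26). Atp5s, known as coupling factor B and not a fixed part of the enzyme, was at 2.77, 5.99 and 8.61 CPM against 10.9, 10.2 and 14.3 CPM. Its increase of 1.03 (SE 0.38, adjusted p = 0.032) was lost without control library 1 or 2 or knockout library 3, and with correction it was 0.64 (adjusted p = 0.16). A second annotated gene named Atp5o had 0 reads in every library.

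Genes that assemble these complexes were called in both directions without correction. For each complex, more of them were called lower than higher, both without and with correction. Over all tested genes, 29.7% were lower and 37.2% higher without correction, and 15.6% and 14.3% with it. Of 23 tested complex IV assembly genes, 12 were lower and 4 higher without correction, and 13 lower and 2 higher with it. The fits shared 9 of the lower genes and 0 of the higher ones, which were Cox11, Sco1, Coa5 and Lrpprc without correction and Coa7 and Taco1 with it. Sco1, which delivers copper to the enzyme, was higher without correction (0.67, adjusted p = 0.038) and lower with it (-0.77, adjusted p = 0.023). Higd2a, a complex IV assembly protein, was lower without correction (-1.63, adjusted p = 0.00043) and with it (-1.10, adjusted p = 0.0098). Coa3, which takes part in making the catalytic subunit in the mitochondrion, was lower without correction (-1.58, adjusted p = 0.00046) and not called with it (-0.44, adjusted p = 0.098). Lrpprc, which stabilises mitochondrial messenger RNA, was at 20.8, 12.6 and 18.2 CPM in the controls and at 41.5, 57.1 and 26.0 CPM in the others, a change of 1.27 (adjusted p = 0.0041), and 0.12 (adjusted p = 0.79) with correction. Of 6 complex III assembly genes, 3 were lower and 2 higher without correction, and 2 and 0 with it. Uqcc2 and Uqcc3, which serve the maturation of cytochrome b, were lower, at -1.45 and -0.99, and only Uqcc3 was called with correction (-0.78, adjusted p = 0.015). Of 6 tested genes for ATP synthase assembly and inhibition that are not among the 45, 4 were lower and 2 higher without correction and 2 and 0 with it. Usmg5, a small subunit linked to dimers of the enzyme, fell from 244 ± 26.2 to 105 ± 9.79 CPM (SD, n = 3 each), a log2 fold change of -1.21 without and -2.26 with correction. The assembly factor Atpaf1 rose from 2.77 ± 1.01 to 10.9 ± 2.18 CPM (SD, n = 3 each), a change of 1.98 (adjusted p = 0.00058), and was at 0.73 (adjusted p = 0.050) with correction.

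Cycs, cytochrome c itself, was at 49.2, 60.2 and 125 CPM in the controls and at 113, 128 and 103 CPM in those labelled knockout. The groups overlapped, and it was not called without correction (0.56, adjusted p = 0.14) and lower with it (-0.91, adjusted p = 0.025). Lonp1 was at 144, 135 and 145 CPM against 124, 119 and 149 CPM, with overlapping groups and no call (-0.11, adjusted p = 0.64, and 0.47, adjusted p = 0.074, with correction). Higd1a, a hypoxia-induced partner of complex IV, was lower in both fits, at -0.55 (adjusted p = 0.049) and -1.64 (adjusted p = 0.0012). Pdk1, another respiratory gene tied to hypoxia, was higher in both fits by edgeR, at 1.91 (adjusted p = 0.00049) and 0.86 (adjusted p = 0.022). With principal transcripts Pdk1 was not called (0.45, adjusted p = 0.19). Bnip3, also tied to hypoxia, was called in neither fit (0.70, adjusted p = 0.13, and 0.68, adjusted p = 0.16, with correction). Of 11 nuclear regulators of respiratory genes, 2 were lower and 6 higher without correction, and 0 and 1 with it. The shares over all tested genes were 29.7% lower and 37.2% higher without correction, and 15.6% and 14.3% with it. Ppargc1a, the coactivator of mitochondrial biogenesis, was at 6.65, 4.57 and 5.62 CPM against 15.7, 15.4 and 20.4 CPM, a change of 1.61 (adjusted p = 0.00057) that was 0.42 (adjusted p = 0.28) with correction. Esrra, a nuclear receptor that works with it, was lower without correction (-1.60) and not called with it (-0.23). All 3 erythroid markers were lower without correction, their sum going from between 39.8 and 58.4 CPM to between 5.07 and 24.1 CPM, and 1 of them, Alas2, was lower with correction. T cell markers summed to between 183 and 368 CPM in the controls and to between 139 and 779.6 CPM in the others, with 1 of 7 higher without correction and 0 with it. Myeloid markers summed to between 9.87 and 21.6 CPM against 21.3 to 30.9 CPM, with 3 of 5 higher without correction and 1 of 5, Adgre1, with it. The part of these cell types in the differences of the subunit genes was not tested.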

How the data were processed

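RNA of isolated small intestine epithelial cells went into Illumina libraries, per the labels' protocols. The submitters' processing notes name STAR 2.6.1c, Subread 1.6.1, SAMtools 1.8, cutadapt 1.18 and FastQC 0.11.8 with GRCm38, and their settings, strand included, are not given in the sources used here. The authors deposited raw counts per gene, a normalised signal equal to the counts divided by size factors, and regularised log2 values. Tests used the counts, and the deposited log2 values had the same sign as the fitted change in 40 of 40 genes.

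The genotype label set the groups, while numbers given to replicates follow accession order and pair nothing. Of the 55298 identifiers, 55117 matched GENCODE M21 without their version suffix and 54550 with it. Counts were tested over all 15143 genes kept by filterByExpr (minimum count 10, minimum total 15) with the robust quasi-likelihood test of edgeR 4.0.16 (limma 3.58.1, R 4.3.3) after TMM scaling, with Benjamini-Hochberg adjustment and a threshold of 0.05. Standard errors were derived from the F statistic, as the absolute log2 fold change over its square root. CPM are TMM-scaled, and TMM factors ran from 0.75 to 1.27. Library pairs all differed beyond sampling noise in chi-square tests, and none was counted as one library sequenced again.

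For the correction, natural splines of GC content (df 6) and log2 transcript length (df 5) were fitted, library by library, to log2 CPM (prior count 2) after subtracting each gene's mean, and served as offsets. It also removes any true difference that follows GC content or length. The steps were run on simulated data, where the added trend had the form that the correction removes. Changed genes were drawn there regardless of GC content. Such data cannot show how the correction treats true differences that follow GC content. DESeq2 1.42.0 was run as an alternative. The subunit genes, the gene lists and the markers were chosen with earlier results of these data known. Values in every library were given by rule for the 2 genes of smallest p in each complex and for those called higher. The rule also took the tested muscle and testis isoforms, the subunit c genes, Cox6b1, Cox4i1, Cox5a and Cox5b. Others in the text, some also with values in every library, were chosen after their values were seen, or by smallest p within a list.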

Additional observations from a re-analysis of the deposited data

How the results depend on the processing

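Of the results over the 3 complexes, the counts of 7, 12 and 12 lower genes and 3 higher genes stayed within 1.5 times under upper quartile, total count and DESeq2 scaling, the DESeq2 test, limma-voom, no robust estimation, other filters, a stricter threshold and removal of the 20 most abundant genes, Atp5b among them. Leaving out each library gave 6 to 7, 11 to 12 and 11 to 12 lower genes and 2 to 3 higher ones without correction, and 3 to 4, 5 to 8 and 8 to 10 lower and 0 to 1 higher with it. Higher genes numbered 1 with the correction for GC content and length, 1 when it was fitted without the subunit genes, 0 for GC content alone and 0 with protein-coding transcripts. Protein-coding transcripts gave 4 lower genes in complex III and 7 in the ATP synthase. Correction for GC content alone gave 7, 11 and 14 lower genes in the 3 complexes, where 2411 of 15135 genes were lower. Correction for length alone gave 7, 12 and 12, where 5235 of 15135 genes were. Principal transcripts gave 3 lower in complex III and 7 in complex IV. With the GC slope of each library as a covariate, all 4 counts were 0. The calls that turned sign under that covariate had log2 fold changes of 0.064 (Uqcr11), 0.54 (Cyc1), 0.45 (Uqcrc1), -1.63 (Uqcrc2), 0.00663 (Cox6a1), 0.45 (Cox4i1), 0.14 (Cox6b1), 0.30 (Cox6c), 0.47 (Cox6b2), 0.23 (Cox7c), 0.14 (Atp5g1), 0.61 (Atp5g2), 0.033 (Atp5b), -1.03 (Atp5s) and -1.50 (Atp5f1). Under principal transcripts they were 0.050 (Uqcr11), 0.0086 (Uqcr10), 0.063 (Atp5g2) and -0.050 (Atp5s), none of them called (edgeR adjusted p from 0.86 to 0.98). Under the covariate, standard errors of the turned values ran from 0.75 (Atp5f1) to 1.48 (Atp5s). The edgeR adjusted p there was 0.99987 for each, so no reversal is read from them. Without control libraries 1 and 2, tried after seeing the data, 7, 11 and 11 genes were lower and 2 higher, but 1 control library then remained, the spread came only from the libraries labelled knockout and the lone control was assumed to vary like them, so these counts say nothing of stability. Beyond the settings' own construction, the cause was not tested. With 3 libraries a group and GC slopes that separate the groups, small changes could not be told from none. No paired analysis was possible because replicate numbers are in accession order only.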

Other observations

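Genes that shape the inner membrane around these complexes also moved both ways. Of 8 tested genes of cristae organisation, 3 were lower and 4 higher without correction, and 2 and 1 with it. Over all tested genes, 29.7% were lower and 37.2% higher without correction, and 15.6% and 14.3% with it, so both directions are common. Immt, a central protein of crista junctions, was at 44.4, 32.9 and 55.5 CPM in the controls and at 271, 253 and 148 CPM in those labelled knockout. Its log2 fold change was 2.34 (edgeR adjusted p = 0.00019) and, corrected, 1.23 (adjusted p = 0.0063). Minos1, a small partner of Immt in the same structure, went the other way, with -0.68 (adjusted p = 0.012) and, corrected, -1.33 (adjusted p = 0.0016). Of complex II, which feeds electrons to complex III, Sdha was higher and the other 3 genes lower in both fits. Sdha, the flavoprotein, rose from 112 ± 33.1 to 429.6 ± 84.5 CPM (SD, n = 3 each), and Sdhb, the iron-sulfur subunit, fell from 839 ± 224 to 328 ± 44.0 CPM (SD, n = 3 each). Slc25a3 and Slc25a5, carriers that bring phosphate and ADP to the ATP synthase, were not called without correction (adjusted p = 0.080 and 0.91) and were lower with it, at -1.60 and -0.89.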
